A study of Mus musculus with 21 samples.

Results

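Tail epidermis of tumour-bearing PKI mice was compared with tail epidermis of their own tumour-free controls. PKI is the protein kinase A inhibitor, and in this mouse model it accompanies basal cell carcinoma (BCC), a keratinocyte tumour of the skin. Of the 21 libraries of the series, 7 belong to this model by their titles: 3 named PKI_Con and 4 named PKI_BCC, and only these 7 were used. PKI mice were sampled 57 days after tumour induction. The labels place all 7 libraries in batch C and describe them as tail keratinocytes: epidermis was scraped from trypsin- and dispase-treated tail skin, minced and strained, and polyA RNA was sequenced from the whole cell suspension with no sort. The genotype of the control mice, the promoter and the inducer of the PKI construct, the strain and the age are not given in the sources used here, nor is it said whether each library is 1 mouse. P-values therefore measure the spread between libraries, which may be partly technical. The model bears on cells in which the construct acts, and neither those cells nor the share of tumour cells in a library is given.

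Hedgehog signalling is the pathway that drives basal cell carcinoma. The receptor Ptch1 holds back Smo, a membrane transducer, until a ligand binds it; active Smo then lets the GLI transcription factors switch on target genes, among them Ptch1 and Gli1 themselves. Protein kinase A, which is switched on by cyclic AMP made downstream of the stimulatory G protein Gnas, phosphorylates GLI proteins and thereby keeps them inactive, and PKI peptides block its catalytic subunits. Normal tail epidermis has basal cells marked by Krt5 and Krt14, suprabasal cells marked by Krt1, Krt10 and Krt2, a cornified surface, scales rich in hard keratins, and hair follicles whose inner root sheath has keratins of its own.

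The 7 libraries held 16645858 to 22062731 gene counts. Values are counts scaled to a common library size (CPM) after trimmed-mean scaling, so 3 counts correspond to 0.132 to 0.186 CPM. Libraries of a group correlated at r = 0.969 to 0.986, and libraries of different groups at 0.905 to 0.939, across genes. The first principal component (66.9% of the variance) separated the groups. The second (12.3%) separated 3 libraries with Xist RNA and no Ddx3y RNA, PKI_Con 1, PKI_BCC 1 and PKI_BCC 2, from 4 with Ddx3y, so sex varies within both groups, with 1 female and 2 male control libraries. The keratinocyte markers Krt5 (12785 to 16058 CPM) and Krt14 (11921 to 14594 CPM) were among the highest genes of all 7 libraries, and markers of leukocytes, fibroblasts and melanocytes were present at the lower levels given beside the results they touch. In bulk RNA, fewer cells of a type and less RNA per cell cannot be told apart.

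Of 16397 genes tested with edgeR's quasi-likelihood test, 5653 (34.5%) differed at a Benjamini-Hochberg adjusted p under 0.05, 3063 (18.7%) higher and 2590 (15.8%) lower in PKI_BCC. These calls form the background for every count of genes given here. With at least a 2-fold change the counts were 1248 higher (7.61%) and 740 lower (4.51%). The tail of large changes was longer on the upper side: 347 called genes were at least 8-fold higher and 56 at least 8-fold lower. The median log2 fold change over all genes tested was -0.00. In 23.1% of the genes tested every PKI_BCC library lay above every PKI_Con library, and in 20.1% every PKI_BCC library lay below. All fold changes are PKI_BCC minus PKI_Con on the log2 scale with the standard error (SE) of the fit over 3 and 4 libraries.

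**Figure D1:**
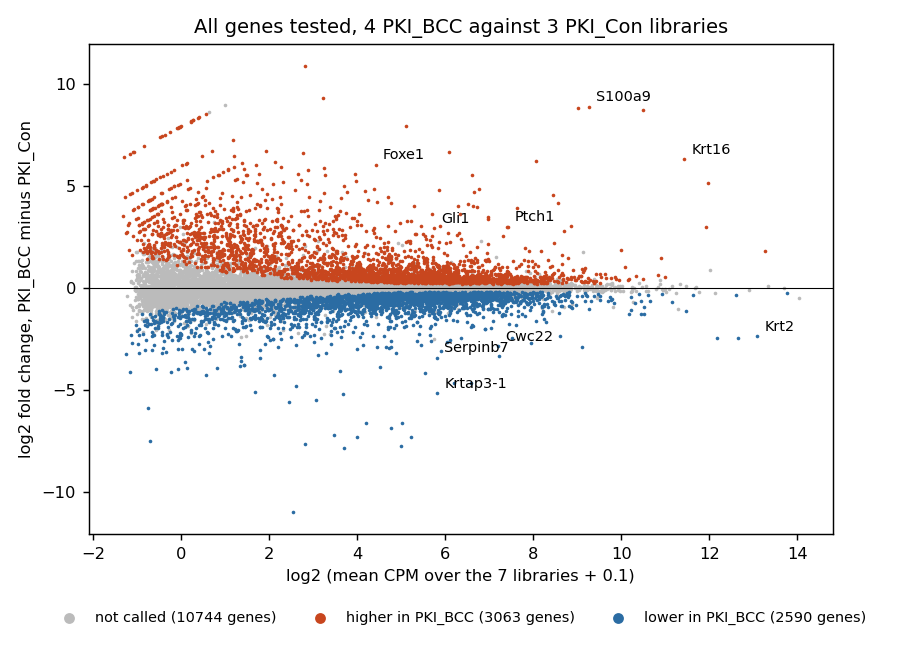
Each point is 1 gene: the horizontal axis is the log2 mean CPM over the 7 libraries and the vertical axis the log2 fold change of PKI_BCC minus PKI_Con. Of the called genes 347 were at least 8-fold higher and 56 at least 8-fold lower; points in slanted lines at the upper left are genes at or near 0 in PKI_Con, whose fitted change is no bound.

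The construct itself could not be read from the counts, because the labels do not name the gene it was made from. The 3 endogenous PKI genes did not move together: Pkia had 4.10, 3.67 and 4.93 CPM in PKI_Con 1 to 3 and 2.08, 2.11, 3.69 and 3.09 in PKI_BCC 1 to 4 and was not called (adjusted p = 0.0956), but it was called without PKI_BCC 3 (adjusted p = 0.0465) and with the replicate block (adjusted p = 0.0494). Pkib rose from 0.311 to 0.642 CPM in PKI_Con to 1.36 to 2.34 in PKI_BCC (1.86 ± 0.40, adjusted p = 0.00644). Pkig was at 11.5 to 12.9 and 13.7 to 14.3 CPM and was not called (adjusted p = 0.234). Whether reads of the construct were counted under these symbols is not known, so these levels check nothing about the model.

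Among 17 tested genes of the Hedgehog ligands, receptors and transducers, 8 rose and 2 fell, against the background of 18.7% and 15.8%, with a median log2 fold change of 0.39. Ptch1 (chr13:63508328-63573598, minus strand, GRCm38/mm10), the main Hedgehog receptor, had 32.1, 30.4 and 39.6 CPM in the control libraries and 254, 208, 287 and 336 in the tumour libraries. Every tumour library lay above every control library, and the fitted change was 2.99 ± 0.18 (adjusted p = 4.8e-05). Gli1 (chr10:127329882-127341974, minus strand), the GLI activator that is itself a target, had 13.8, 9.32 and 10.2 CPM in PKI_Con and 77.7, 65.8, 93.8 and 102 in PKI_BCC (2.93 ± 0.20, adjusted p = 7.1e-05). Gli2 (chr1:118834132-119053619, minus strand), the main activator of the pathway, had 14.8, 15.5 and 20.9 CPM and then 32.5, 31.7, 46.4 and 58.5 (1.31 ± 0.25, adjusted p = 0.00521). Gli3, which acts mostly as a repressor, was at 45.2 to 56.4 CPM in the controls and 41.5 to 57.5 in the tumours and was not called (adjusted p = 0.575). So 2 of the 3 GLI genes rose, and the groups overlapped for the third.

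Per kilobase of transcript, the mean levels of Gli1 and Gli2 were 2.23 and 2.48 CPM per kb in PKI_Con, where PKI_Con 1 had the opposite order, and 17.0 and 6.15 in PKI_BCC, a description with no test. Ptch1 was at 2.40 CPM per kb in the controls and at 19.1 in the tumours.

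Smo (chr6:29735503-29761365, plus strand) had 110, 99.7 and 97.0 CPM in PKI_Con and 136, 138, 157 and 159 in PKI_BCC (0.53 ± 0.09, adjusted p = 0.00187), without overlap but with a change of less than 2-fold. Sufu, which holds GLI proteins in the cytoplasm, changed by 0.39 ± 0.10 (adjusted p = 0.0157) and was not called without PKI_Con 2 (adjusted p = 0.0697). Of the 3 co-receptors that help ligand bind, Gas1 was not called (adjusted p = 0.804). Cdon fell from 54.7 to 59.5 CPM to 20.2 to 27.7 (-1.22 ± 0.12, adjusted p = 0.000178). Boc fell from 67.7 to 97.3 CPM to 39.4 to 51.0 (-0.76 ± 0.14, adjusted p = 0.00378). The ligand Shh was at 0.119 to 0.790 CPM in the controls and 0.719 to 1.68 in the tumours, with overlap, and was not called (adjusted p = 0.0594), but it was called without PKI_Con 1 or PKI_BCC 2 (adjusted p 0.0304 to 0.0499), by DESeq2 (adjusted p = 0.0415), by limma on the authors' normalized values (adjusted p = 0.035) and in males only (adjusted p = 0.0143). Hhip, a membrane protein that traps ligand and is a known GLI target, did not follow Ptch1. It had 50.8, 1.68 and 4.34 CPM in PKI_Con 1 to 3 and 3.20, 4.63, 4.66 and 3.15 in PKI_BCC 1 to 4, was not called (adjusted p = 0.166), and the fitted sign of its change rests on PKI_Con 1: without that library it was 0.37, and Hhip was called lower in females only (-3.70, adjusted p = 0.000296), where that library is the only control. Gli1 overlaps Arhgap9 on the other strand, and Ptch1 and Smo overlap A930032L01Rik and Gm13717 on the same strand; how shared reads were assigned is not given in the sources used here.

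Of 12 other genes described as Hedgehog or GLI targets, 6 rose and 2 fell (3 rose without PKI_Con 2, PKI_Con 3 or PKI_BCC 1). Foxe1, a forkhead factor of the hair follicle that GLI proteins induce, had 1.14, 0.124 and 0.297 CPM in PKI_Con and 44.8, 37.8, 29.3 and 35.8 in PKI_BCC (6.04 ± 0.44, adjusted p = 0.000141; a fitted change of 7.39 without PKI_Con 1). Mycn, a growth-promoting transcription factor, had 6.76, 5.72 and 5.41 CPM and then 32.7, 19.7, 37.4 and 43.5 (2.48 ± 0.27, adjusted p = 0.000489). The other 4 that rose, named after their values were seen, changed by less: Foxm1, a factor of cell division, by 0.73 ± 0.09 (adjusted p = 0.00057), Tnc, a matrix protein, by 1.33 ± 0.38 (adjusted p = 0.038), Lgr5, a follicle stem cell receptor, by 0.49 ± 0.16 (adjusted p = 0.0389) and Cdk6, a cell cycle kinase, by 0.26 ± 0.07 (adjusted p = 0.0231). Tnc, Lgr5 and Cdk6 were each not called in 3 to 5 of the 7 fits that leave out 1 library, among them those without PKI_Con 2, PKI_Con 3 or PKI_BCC 1 (adjusted p 0.065 to 0.14). Sox9 was at 105 to 110 CPM in PKI_Con and 105 to 125 in PKI_BCC (adjusted p = 0.468), Bcl2 and Ccnd1 were not called (adjusted p = 0.652 and 0.637). Ccnd2 fell (-0.63 ± 0.15, adjusted p = 0.0113). Sfrp1, a secreted Wnt inhibitor, also fell (-0.79 ± 0.18, adjusted p = 0.0115).

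**Figure D2:**
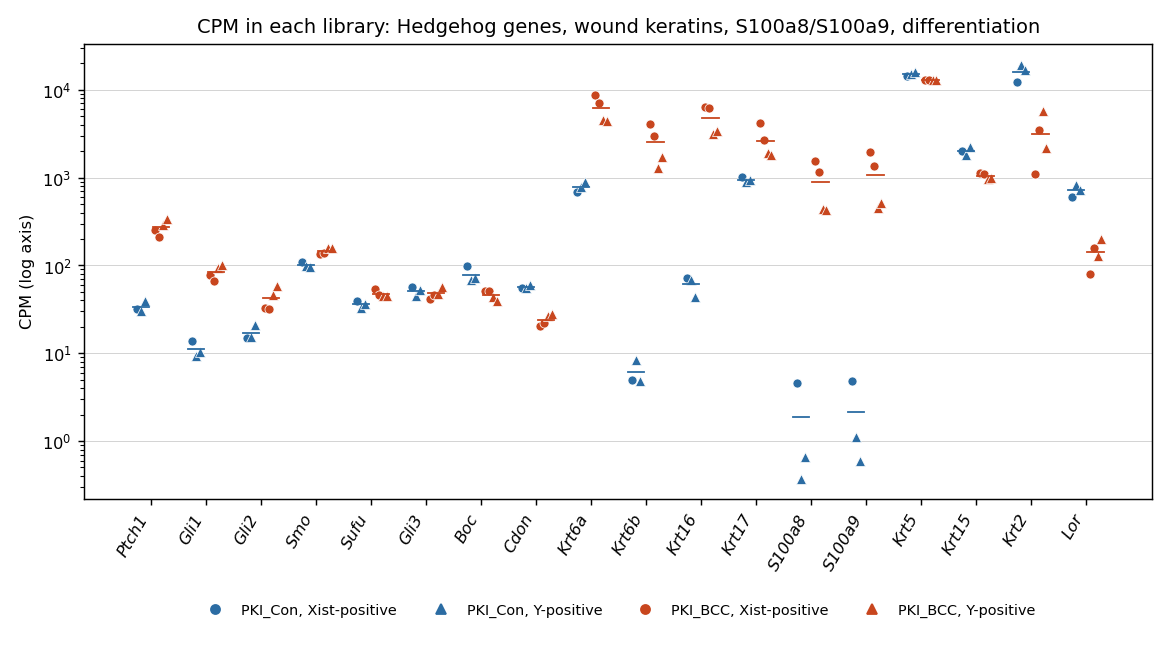
CPM on a log axis in each library for named genes; blue, PKI_Con (n = 3), red, PKI_BCC (n = 4), circles for libraries with Xist RNA and triangles for libraries with Ddx3y RNA, bars for group means. Ptch1, Gli1 and Gli2 lie higher in every PKI_BCC library than in any PKI_Con library, and the wound keratins and S100a8 and S100a9 lie higher in the circles than in the triangles of PKI_BCC.

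Of 11 tested genes for stimulatory G proteins, protein kinase A subunits and PKI peptides, 4 rose and 1 fell, but without PKI_Con 2, PKI_Con 3 or PKI_BCC 1 only 2 rose, and without PKI_Con 1, PKI_Con 2 or PKI_BCC 2 none fell (2 fell without PKI_BCC 3). Gnas, the stimulatory alpha subunit, had 230 to 259 CPM in PKI_Con and 273 to 310 in PKI_BCC (0.25 ± 0.08, adjusted p = 0.0311); it was not called in 4 of the 7 fits that leave out 1 library (adjusted p 0.0717 to 0.122), and it overlaps Gm20721 on the other strand. The catalytic subunits were Prkaca, which was not called (adjusted p = 0.432). Prkacb, which changed by -0.42 ± 0.12 (adjusted p = 0.0212; not called in 3 of the 7 fits that leave out 1 library, adjusted p 0.0546 to 0.0822). The regulatory subunit gene Prkar1a rose from 180 to 184 CPM to 211 to 249 (0.31 ± 0.08, adjusted p = 0.013). Of 11 adenylyl cyclases and phosphodiesterases, the enzymes that make and break down cyclic AMP, 2 rose and 4 fell. Adcy6 fell from 47.1 to 49.6 CPM to 20.8 to 25.8 (-1.08 ± 0.09, adjusted p = 0.000106). Adcy7 rose from 3.60 to 9.78 CPM to 13.9 to 20.1 (1.50 ± 0.32, adjusted p = 0.00868). Without PKI_BCC 2 or PKI_BCC 3, 2 of the list fell and 1 rose, and 1 rose also without PKI_Con 1, PKI_Con 2 or PKI_BCC 1.

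Genes that cyclic AMP induces through CREB did not move one way. Of 15 tested, 5 rose (3 without PKI_Con 2) and 2 fell, with a median of 0.66. Areg, the EGF receptor ligand amphiregulin, had 0.790, 0.559 and 1.13 CPM in PKI_Con and 13.9, 13.2, 8.57 and 9.93 in PKI_BCC (3.77 ± 0.29, adjusted p = 7.75e-05). Nr4a3, a nuclear receptor of the immediate early kind, had 0.435 to 0.654 and 1.09 to 4.44 CPM (2.43 ± 0.49, adjusted p = 0.00484). Its relative Nr4a1 was not called (adjusted p = 0.167) and had 13.2, 4.22 and 6.12 CPM in PKI_Con and 34.2, 50.4, 12.3 and 6.41 in PKI_BCC. Sik1, a kinase of the CREB coactivators, fell from 128 to 160 CPM to 59.0 to 95.1 (adjusted p = 0.00262), and the clock gene Per1 fell (-0.78 ± 0.18, adjusted p = 0.0124).

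The keratins of wounded and stressed epidermis moved together: all 5 tested rose, with a median log2 fold change of 3.49, and all 5 were called in each fit that left out 1 library. Krt6b (chr15:101676023-101680287, minus strand) had 4.94, 8.45 and 4.87 CPM in PKI_Con and 4099, 3009, 1287 and 1698 in PKI_BCC (8.70 ± 0.65, adjusted p = 0.000356). Krt16 (chr11:100246091-100248902, minus strand), its type I partner, had 71.4, 67.5 and 43.7 CPM and then 6361, 6208, 3158 and 3391 (6.29 ± 0.41, adjusted p = 0.000141). Krt6a had 693, 778 and 888 CPM in PKI_Con and 8723, 7092, 4561 and 4474 in PKI_BCC (2.98 ± 0.27, adjusted p = 0.000348). Krt17, which basal cell carcinomas express, had 1027, 889 and 937 CPM and then 4142, 2656, 1895 and 1815 (1.47 ± 0.30, adjusted p = 0.00861). For all 4 the highest tumour library was PKI_BCC 1, and each of the female libraries PKI_BCC 1 and 2 lay above each of the male libraries 3 and 4. Krt6a and Krt6b are near-identical copies, so the division of reads between them is uncertain, and how shared reads were counted is not given in the sources used here. Together Krt6a, Krt6b, Krt16 and Krt17 took 0.169 to 0.185% of all gene counts in PKI_Con and 1.12 to 2.33% in PKI_BCC.

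Of 13 tested basal keratinocyte genes, none rose and 7 fell, with a median of -0.51. Col17a1, the hemidesmosome collagen, fell from 3784, 4042 and 4426 CPM to 1604, 1776, 2257 and 1844 (-1.13 ± 0.12, adjusted p = 0.000269). Dst, the plakin that ties hemidesmosomes to keratin, fell from 1687 to 2608 CPM to 619 to 1208 (-1.27 ± 0.26, adjusted p = 0.00834). Krt15, a keratin of basal and bulge cells, fell from 1832 to 2245 CPM to 969 to 1142 (-0.94 ± 0.10, adjusted p = 0.00024). Krt14 and Trp63, the transcription factor of the basal layer, were not called (adjusted p = 0.986 and 0.189). Krt5 changed by -0.24 ± 0.07 (adjusted p = 0.0339) and was not called in 6 of the 7 fits that leave out 1 library (adjusted p 0.0523 to 0.145).

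The suprabasal list held 12 tested genes, of which 1, Krt1, rose and 7 fell (3 without PKI_Con 2). Krt2, the keratin of the upper suprabasal layers, had 12331, 19342 and 16655 CPM in PKI_Con and 1101, 3469, 5676 and 2194 in PKI_BCC (-2.37 ± 0.55, adjusted p = 0.0189); the call was lost without PKI_Con 2 or PKI_BCC 4 (adjusted p 0.0509 to 0.051), although every tumour library lay below every control. Krt78 fell from 127 to 213 CPM to 26.6 to 63.9 (-1.81 ± 0.31, adjusted p = 0.00479). Krt10 was not called (adjusted p = 0.474). Krt1, its partner, went the other way: 1858, 4926 and 5520 CPM in PKI_Con and 7405, 18215, 10800 and 20774 in PKI_BCC (1.80 ± 0.53, adjusted p = 0.0414), the largest gain of CPM of any called gene, not called in 6 of the 7 fits that leave out 1 library, all but that without PKI_BCC 1 (adjusted p 0.0574 to 0.0874). Krt1 and Krt2, which form filaments with the same partner, thus moved in opposite directions, and the summed share of Krt1, Krt10 and Krt2 overlapped between the groups (2.79 to 4.74% and 1.30 to 4.48% of counts).

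Genes of terminal differentiation and cornification fell in 7 of 16 tested cases and rose in 1 (4 fell without PKI_Con 2, and 2 rose without PKI_BCC 3). Lor, loricrin, a main protein of the cornified envelope, had 606, 829 and 729 CPM in PKI_Con and 80.9, 160, 128 and 199 in PKI_BCC (-2.35 ± 0.29, adjusted p = 0.00122). Hrnr, hornerin, had 303, 648 and 496 CPM and then 38.7, 73.2, 72.1 and 108 (-2.72 ± 0.39, adjusted p = 0.00304). Flg and Flg2, the filaggrins, overlapped between the groups and were not called (adjusted p = 0.366 and 0.14). Both were called lower without PKI_BCC 4 (adjusted p = 0.0173 and 0.0369) and with the replicate block (0.000328 and 0.00369), and Flg2 also with sex as a covariate (0.00309) and in males only (0.0218). Ivl, involucrin, was not called (adjusted p = 0.458). Crnn, cornulin, was the gene that rose, from 0.808 to 2.81 CPM to 28.3 to 41.2 (4.30 ± 0.38, adjusted p = 0.000271; 5.07 without PKI_Con 1).

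The epidermal differentiation complex on chromosome 3 split by family. Of 13 tested Sprr genes, which encode small proline-rich envelope proteins, 12 rose, and of 17 tested Lce genes, which encode late cornified envelope proteins, 15 fell and none rose. The Lce calls were the same in number in every fit that left out 1 library, whereas the count of genes of both families that rose was 7 without PKI_Con 1, 6 without PKI_Con 3 and 6 without PKI_BCC 2. Sprr2a2 (chr3:92215920-92256724, plus strand) had 359, 155 and 73.7 CPM in PKI_Con and 9033, 8715, 6432 and 3203 in PKI_BCC (5.13 ± 0.76, adjusted p = 0.00409; 5.90 without PKI_Con 1). Sprr1a had 137, 126 and 91.5 CPM and then 714, 545, 362 and 526 (2.18 ± 0.25, adjusted p = 0.000718). Lce1l had 81.4, 37.0 and 29.0 CPM in PKI_Con and 2.49, 3.75, 3.08 and 4.13 in PKI_BCC (-3.87 ± 0.40, adjusted p = 0.000636), Lce1m had 36.9, 20.5 and 21.7 CPM and then 0.458, 0.976, 1.50 and 3.26 (-4.10 ± 0.53, adjusted p = 0.00147; -4.73 without PKI_BCC 4). Lce1d and Lce1j fell by 3.21 and 3.22 on the log2 scale. Members of each family are near-identical in sequence, Sprr2a2 overlaps Sprr2a1, and single members are uncertain for that reason, while both families' directions do not rest on 1 member.

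Promoters of this complex are shown because the Sprr and Lce genes of one complex were called in opposite directions and differ in how often they hold a motif. RefSeq promoters (GRCm38.p6, the 250 bases before the annotated start, written 5′ to 3′ on the gene's own strand) were searched for the AP-1 motif TGANTCA, which reads the same on both strands. It occurred in 6.75% of 32851 promoters of the same length, in 7 of the 11 tested Sprr genes with a promoter in the table, in 7 of 15 terminal differentiation genes and in 0 of 16 Lce genes. A gene was counted if any of its promoters matched, so its share is not the same measure as that over promoters. Sprr2d, Sprr2e and Sprr2i all hold TGAGTCA 193 bases before the start, so matches within the family are not independent. Of the 7 Sprr genes with a match 6 rose, among them Sprr1a with 2 matches and Sprr1b (not called without PKI_Con 3, adjusted p = 0.0589), and 1 was not called. Of the 7 terminal differentiation genes with a match 1 rose, 2 fell (Lor and Hal) and 4 were not called. A match is a string of letters and not a measured binding site. Capitals mark the motif:
Sprr1a (chr3:92485882-92486131, minus strand): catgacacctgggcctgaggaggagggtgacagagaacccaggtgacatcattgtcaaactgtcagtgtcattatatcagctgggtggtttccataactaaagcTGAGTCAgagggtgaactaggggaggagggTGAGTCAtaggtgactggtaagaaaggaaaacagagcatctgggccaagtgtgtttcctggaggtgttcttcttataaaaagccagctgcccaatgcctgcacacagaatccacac
Sprr1b (chr3:92438780-92439029, minus strand): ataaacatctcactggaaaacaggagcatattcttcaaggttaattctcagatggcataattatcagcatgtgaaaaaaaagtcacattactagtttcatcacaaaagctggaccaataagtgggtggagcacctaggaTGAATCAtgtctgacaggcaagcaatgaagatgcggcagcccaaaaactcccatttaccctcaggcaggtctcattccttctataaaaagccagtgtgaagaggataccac
Lor (chr3:92083143-92083392, minus strand): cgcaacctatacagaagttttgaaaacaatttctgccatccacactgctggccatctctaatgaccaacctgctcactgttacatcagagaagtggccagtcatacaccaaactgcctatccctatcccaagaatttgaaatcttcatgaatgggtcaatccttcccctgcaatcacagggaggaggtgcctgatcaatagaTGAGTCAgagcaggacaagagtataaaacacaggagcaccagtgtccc

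For the CREB list the motif searched was TGACGTCA, the cyclic AMP response element, which also reads the same on both strands and occurred in 1.55% of the 32851 promoters. Of 86 genes of the searched lists with a promoter, 4 held it in any of their promoters: Areg rose, and Dusp1, Errfi1 and Hhip were not called. The promoter of Areg is shown because it is the gene of the CREB list with the largest called rise, with the motif in capitals:
Areg (chr5:91139349-91139598, plus strand): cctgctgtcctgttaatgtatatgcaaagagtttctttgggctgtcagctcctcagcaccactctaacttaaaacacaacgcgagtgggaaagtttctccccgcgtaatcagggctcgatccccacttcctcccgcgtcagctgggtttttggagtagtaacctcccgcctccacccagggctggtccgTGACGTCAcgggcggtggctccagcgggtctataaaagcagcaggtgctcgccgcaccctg
The GLI motif TGGGTGGTC (or GACCACCCA on the other strand) occurred in 0.225% of all promoters and in none of those 86, which says only that these letters are not in those windows.

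All 8 tested inner root sheath genes rose (5 without PKI_BCC 1), with a median of 4.34. With the replicate block Krt25, Krt27, Krt28 and Krt71 were not called (adjusted p 0.0565 to 0.121). Krt26 (chr11:99328550-99337966, minus strand) had 0.642, 0 and 0 CPM in PKI_Con and 59.3, 75.1, 59.2 and 45.3 in PKI_BCC (7.91 ± 0.59, adjusted p = 0.00022). Krt28 had 13.9, 2.05 and 3.39 CPM and then 175, 217, 159 and 132 (4.69 ± 0.68, adjusted p = 0.00383). Krt27 had 16.0, 1.80 and 1.07 CPM and then 191, 183, 162 and 212 (4.84 ± 0.91, adjusted p = 0.00994). Krt71 had 64.7, 5.66 and 6.00 CPM in PKI_Con and 620, 543, 493 and 725 in PKI_BCC (4.53 ± 1.06, adjusted p = 0.0214; adjusted p 0.0517 to 0.0591 without PKI_BCC 1 or PKI_BCC 4). In each of these genes PKI_Con 1 was the highest control, yet below every tumour library. Krt25, with 57.3, 3.85 and 4.22 CPM in PKI_Con and 285 to 394 in PKI_BCC, was called (3.91 ± 1.09, adjusted p = 0.0393) but in 6 of the 7 fits that leave out 1 library it was not (adjusted p 0.0618 to 0.0932). The sizes rest on PKI_Con 1: without it the fitted changes were 5.96 for Krt28, 7.02 for Krt27, 6.67 for Krt71 and 6.36 for Krt25, and Krt26 had no count in the remaining controls, so that its fitted change there is no bound.

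The hard keratins of hair, nail and tail scale did not move as a group: 3 of 15 rose and 3 fell. That is 20% each way, near the background of 18.7% and 15.8%. Without PKI_Con 1, 11 rose and 1 fell, and that library had the highest control level of all 15; without PKI_BCC 1, 1 fell. Krt84 and Krt36, which tail scales and nail express, were among the largest losses of CPM: Krt84 went from 16414, 12767 and 6957 CPM to 1656, 3216, 3037 and 757 (-2.48 ± 0.56, adjusted p = 0.0184; adjusted p 0.0516 to 0.0638 without PKI_Con 1 or PKI_BCC 1), and Krt36 from 11548, 9291 and 5092 CPM to 1192, 2376, 2138 and 530 (-2.47 ± 0.57, adjusted p = 0.0188; adjusted p 0.0527 to 0.0661 without the same libraries). Krt35, a keratin of the hair matrix and cuticle, rose from 5.03 to 21.8 CPM to 53.0 to 230.2 (3.61 ± 0.79, adjusted p = 0.0168; 4.66 without PKI_Con 1). Keratin-associated protein genes encode the matrix of hair. Of 49 listed, 18 were tested: 11 fell and 2 rose, with a median of -4.43. In the fits that leave out 1 library 9 to 10 fell. In these fits 4 rose without PKI_Con 1 and 1 rose without PKI_Con 2, PKI_Con 3, PKI_BCC 2 or PKI_BCC 3. Members near 0 in PKI_BCC, such as Krtap21-1 with 774 and 0 counts in PKI_Con and PKI_BCC, passed the filter on low counts only through PKI_Con. They could hardly be called higher, so the count that fell and the median are partly set by the filter. Krtap3-1 had 233, 94.6 and 51.5 CPM in PKI_Con and 2.29, 4.78, 5.36 and 1.52 in PKI_BCC (-5.16 ± 0.70, adjusted p = 0.003; -4.37 without PKI_Con 1). Krtap6-1 had 65.8, 14.6 and 9.68 CPM and then 0.0508, 0.0514, 0.264 and 0.109 (-7.85 ± 1.06, adjusted p = 0.00259; -8.63 without PKI_BCC 3, -6.55 without PKI_Con 1). The 2 that rose, Krtap17-1 (1.72 ± 0.38, adjusted p = 0.00749) and Krtap24-1 (1.98 ± 0.61, adjusted p = 0.0328; not called without PKI_Con 2 or PKI_Con 3, adjusted p 0.0937 to 0.111), were low in all libraries, at 0.0594 to 5.04 CPM.

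Of 23 regulators and stem cell genes of the follicle, 8 rose and 2 fell (1 without PKI_Con 1, PKI_Con 2, PKI_BCC 2 or PKI_BCC 3). Lef1, the Wnt effector of hair matrix cells, rose from 1.74 to 5.23 CPM to 24.4 to 30.8 (3.07 ± 0.32, adjusted p = 0.000422; 3.66 without PKI_Con 1), Foxi3 rose from 1.07 to 1.78 CPM to 8.99 to 23.5 (3.29 ± 0.39, adjusted p = 0.000605). Lhx2, a factor of hair placodes and bulge cells, rose from 38.7 to 47.8 CPM to 101 to 145 (1.55 ± 0.14, adjusted p = 0.000185). Gata6 fell (-0.93 ± 0.12, adjusted p = 0.000647). Cd34, a bulge marker, changed by -0.99 ± 0.29 (adjusted p = 0.0276; not called in 5 of the 7 fits that leave out 1 library, adjusted p 0.0627 to 0.0771). Of 7 simple and upper follicle keratins 5 rose (3 without PKI_Con 2, PKI_Con 3, PKI_BCC 1 or PKI_BCC 2) and 1 fell (2 without PKI_Con 1). Krt19 rose from 0.0594 to 0.249 CPM to 1.80 to 4.11 (4.41 ± 0.51, adjusted p = 0.000412; 5.09 without PKI_Con 2) while Krt8 fell from 4.04 to 6.07 CPM to 0.977 to 2.16 (-1.43 ± 0.30, adjusted p = 0.00575) and its partner Krt18 was not called (adjusted p = 0.152).

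**Figure D3:**
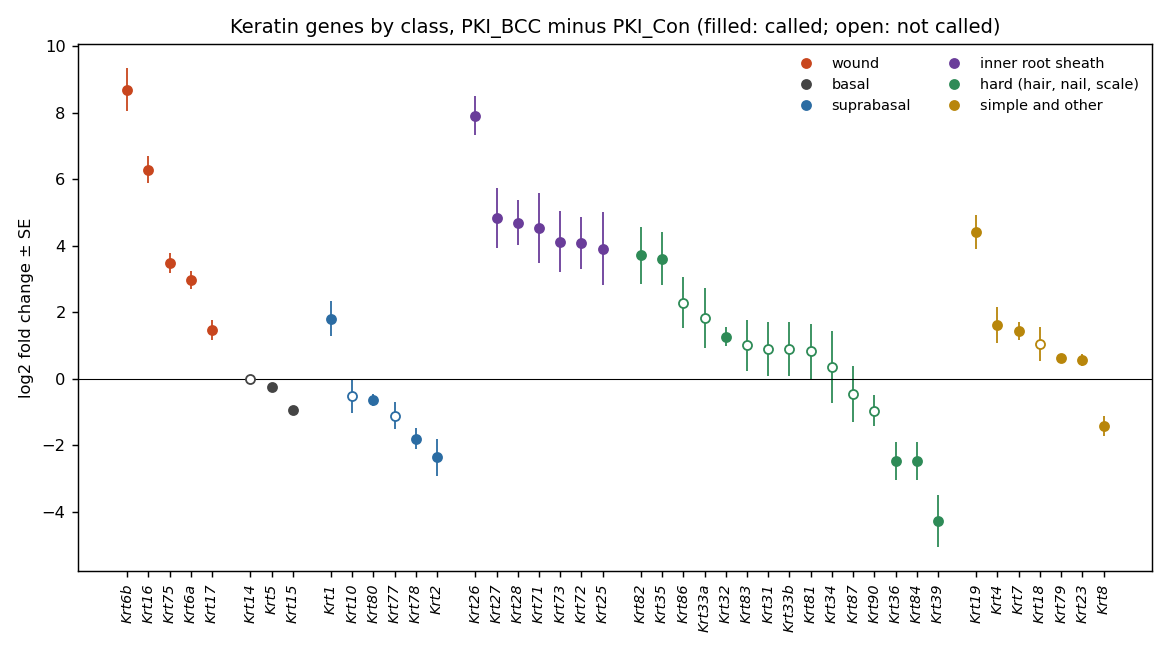
Log2 fold change (PKI_BCC minus PKI_Con) with its standard error for each tested keratin gene, grouped by class; filled points were called at adjusted p under 0.05 and open points were not. All 5 wound keratins and all 7 inner root sheath keratins lie above 0, while suprabasal and hard keratins lie on both sides, with Krt1 above and Krt2 below.

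S100a8 and S100a9, whose proteins form the antimicrobial complex calprotectin, both rose. S100a9 (chr3:90692632-90695721, minus strand) had 4.79, 1.12 and 0.594 CPM in PKI_Con and 1964, 1350 and then 452 and 512 in PKI_BCC 1 to 4 (8.88 ± 1.12, adjusted p = 0.00254; 10.28 without PKI_Con 1), and S100a8 (chr3:90668978-90670035, plus strand) had 4.59, 0.373 and 0.654 CPM and then 1563, 1164, 444 and 433 (8.82 ± 1.13, adjusted p = 0.00272; 10.75 without PKI_Con 1). Neutrophils and stressed keratinocytes both make them. Of 15 listed neutrophil markers 8 were in the table and 1, Cxcr2, passed the filter on low counts and rose (1.91 ± 0.42, adjusted p = 0.00887); the summed level of the 8 was 1.19 to 4.20 CPM in PKI_Con and 6.03 to 13.3 in PKI_BCC and its part in the S100 values was not tested. In all, 5 of 13 tested S100 genes rose and none fell (1 fell without PKI_Con 2 or PKI_BCC 3). Lcn2, an iron-trapping antimicrobial protein, rose from 1.93 to 3.29 CPM to 17.6 to 42.1 (3.29 ± 0.39, adjusted p = 0.000814), and the acute phase gene Saa1 fell (-3.78 ± 0.48, adjusted p = 0.000684).

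Of 14 interleukin-1 family genes 5 rose and 1 fell (none without PKI_Con 2, PKI_Con 3, PKI_BCC 1, PKI_BCC 2 or PKI_BCC 3). Il1a, the alarm cytokine of keratinocytes, rose from 1.49 to 2.77 CPM to 3.69 to 7.09 (1.57 ± 0.31, adjusted p = 0.00453), Il1b rose from 0 to 0.198 CPM to 0.704 to 3.66 (3.81 ± 0.90, adjusted p = 0.0112; 3.05 without PKI_BCC 1, 4.61 without PKI_Con 1), and so did Il1rn, the receptor antagonist that opposes both, at 38.2 to 60.3 and 68.8 to 92.8 CPM (0.74 ± 0.16, adjusted p = 0.00755). Il1rl1, the IL-33 receptor, had no count in PKI_Con and 0.565 to 3.00 CPM in PKI_BCC, at least 35.3-fold higher against a floor of 3 counts over the control group (adjusted p = 0.00474). Of 18 other cytokines and receptors 11 rose and 2 fell. Cntfr, the receptor of ciliary neurotrophic factor, had 4.64, 2.80 and 3.45 CPM in PKI_Con and 211, 190, 117 and 158 in PKI_BCC (5.53 ± 0.28, adjusted p = 4.63e-05). Il24 had 1 count in PKI_Con and 217 in PKI_BCC, a ratio of 144 (95% counting interval 25.5 to 5.7e+03, adjusted p = 0.0012). Il20rb and Il6ra, receptor chains at over 100 CPM in each control library, fell (-1.01 ± 0.13 and -0.79 ± 0.13, adjusted p = 0.000747 and 0.00221). Floors and counting intervals cover counting error only.

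Of 31 listed chemokine ligands 23 passed the filter on low counts, of which 13 rose and 5 fell (3 fell without PKI_Con 2 or PKI_Con 3). Cxcl3 and Cxcl5, which attract neutrophils, had no count in PKI_Con and 0.396 to 4.47 and 0.874 to 2.69 CPM in PKI_BCC, at least 33.8-fold and 26.1-fold higher against the group floor of 3 counts (adjusted p = 0.0197 and 0.00198). Ccl6 and Ccl28 fell (-2.58 ± 0.30 and -1.82 ± 0.41, adjusted p = 0.000438 and 0.00809). The median of the list was 2.15, also with the 3 genes that had no control count set at their bound. These 3, Cxcl3, Cxcl5 and Ccl8, passed the filter on low counts only through PKI_BCC and could not be called lower. The count that rose and the median are thus partly set by the filter.

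Leukocyte markers rose together with these genes. Of 8 tested markers of leukocytes in general 7 rose, and their summed level was 8.91 to 23.2 CPM in PKI_Con and 60.5 to 148 in PKI_BCC. T cell markers rose in 12 of 13 cases (8.50 to 17.8 and 27.4 to 62.5 CPM summed), markers of Langerhans and dendritic cells in 10 of 11 (67.0 to 209 and 520.2 to 1028 CPM), and markers of macrophages in 8 of 11 (19.3 to 23.3 and 48.2 to 88.3 CPM). Some members, such as Cd28 and Flt3 with 1 and 0 counts in PKI_Con, passed the filter on low counts only through PKI_BCC. They could hardly be called lower, so these shares are partly set by the filter. Cd4 had 3 counts in PKI_Con, all in PKI_Con 1, and 518 in PKI_BCC, a ratio of 114 (95% counting interval 38.9 to 556, adjusted p = 0.000451). Rac2, a GTPase of blood cells, rose from 0.178 to 0.889 CPM to 3.69 to 12.5 (3.85 ± 0.59, adjusted p = 0.00193; 4.60 without PKI_Con 1). Cd52 rose from 0.870 to 2.96 CPM to 7.22 to 25.1 (3.20 ± 0.57, adjusted p = 0.00496; 3.98 without PKI_Con 1). Trdc, a constant region of the gamma-delta T cells that live in normal epidermis, did not follow: 2.44 to 5.43 and 1.47 to 4.49 CPM, not called (adjusted p = 0.58; chosen after its values were seen).

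Genes of antigen presentation rose in 12 of 16 cases and none fell, with a median of 1.42 (6 rose without PKI_Con 2 or PKI_Con 3). H2-Aa, a class II chain, had 26.8, 12.2 and 9.27 CPM in PKI_Con and 159, 95.8, 91.7 and 74.2 in PKI_BCC (2.70 ± 0.46, adjusted p = 0.00551; 3.29 without PKI_Con 1), and its partner H2-Ab1 35.4, 11.8 and 9.86 CPM and then 197, 126, 89.6 and 84.0 (2.70 ± 0.59, adjusted p = 0.0159; 3.52 without PKI_Con 1). These chains are also on the list of Langerhans and dendritic cell markers, and the part of those cells in the change was not tested. Of 13 tested interferon-stimulated genes 4 rose (2 without PKI_Con 1, PKI_Con 2 or PKI_Con 3) and none fell (1 without PKI_BCC 3).

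**Figure D4:**
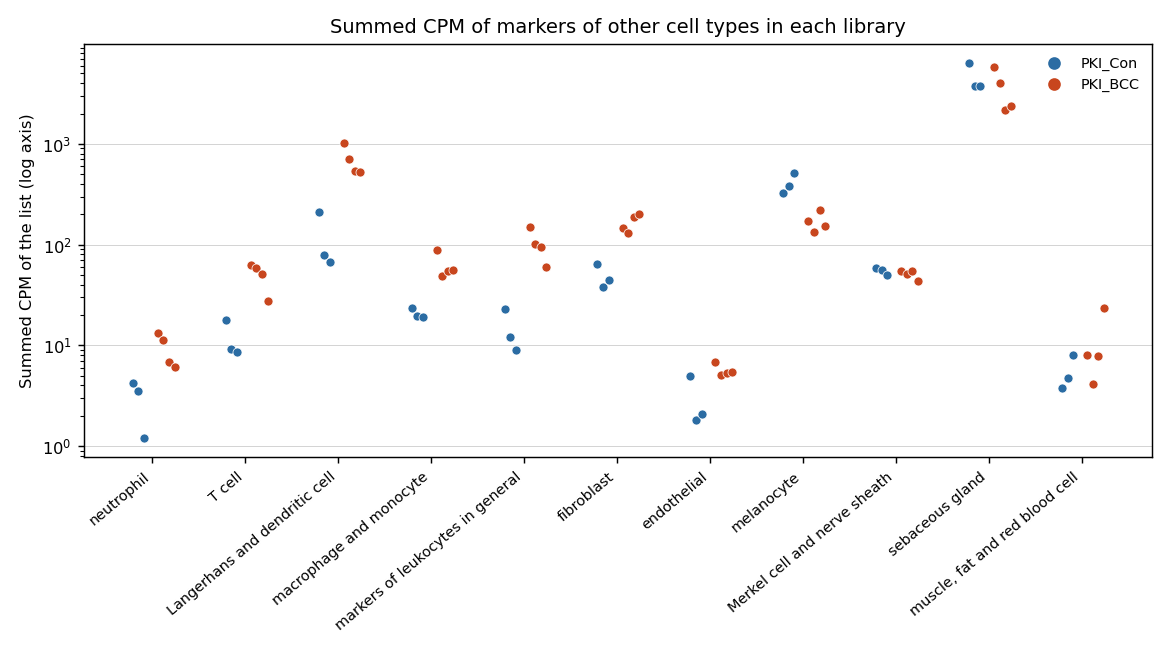
Summed CPM of markers of other cell types (log axis) in each PKI_Con library (blue, n = 3) and PKI_BCC library (red, n = 4). The leukocyte, T cell, Langerhans and dendritic, macrophage and fibroblast sums are higher in every PKI_BCC library than in any PKI_Con library, the melanocyte sum is lower, and the sebaceous and nerve sums overlap.

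All 20 mitosis genes tested rose (19 to 20 in the fits that leave out 1 library), with a range of 0.44 to 1.13 and a median of 0.95. Mki67, the marker of cycling cells, had 246, 243 and 281 CPM in PKI_Con and 416, 385, 486 and 573 in PKI_BCC (0.86 ± 0.14, adjusted p = 0.00182). Top2a had 123, 117 and 137 CPM and then 262, 262, 226 and 240.1 (0.98 ± 0.09, adjusted p = 0.000141). Aurka, a spindle kinase, showed the largest change of the list (1.13 ± 0.13, adjusted p = 0.000365). Of 24 replication genes 17 rose and none fell, with a median of 0.58. Rrm2, which makes deoxynucleotides, rose from 44.8 to 52.4 CPM to 81.5 to 112 (0.97 ± 0.13, adjusted p = 0.000686). Ccne1, the cyclin of the G1 to S step, rose from 4.41 to 7.90 CPM to 10.9 to 17.3 (1.28 ± 0.24, adjusted p = 0.00376).

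Among 16 D cyclins, Myc genes and cell cycle inhibitors 5 rose and 3 fell. Cdkn2a, which encodes p16 and p19Arf, had 3 counts in PKI_Con, none of them in PKI_Con 3, and 250 in PKI_BCC, a ratio of 55.2 (95% counting interval 18.7 to 269, adjusted p = 0.000398). Its fitted change was 5.66, and 6.58 without PKI_Con 2. Cdkn1a and Cdkn2b, other inhibitors, were not called (adjusted p = 0.0689 and 0.16; Cdkn1a was without PKI_BCC 2, by DESeq2 and in males only, adjusted p = 0.0299, 0.0435 and 0.0221), nor was Myc (adjusted p = 0.282). Of 15 Bcl2 family genes 5 rose and 1 fell. Pmaip1, the death-promoting protein Noxa, was among the smallest p-values of all genes: 1.78, 2.24 and 1.66 CPM in PKI_Con and 14.7, 18.6, 15.5 and 17.1 in PKI_BCC (3.12 ± 0.17, adjusted p = 2.6e-05). Bcl2l2, a survival protein, fell (-0.52 ± 0.07, adjusted p = 0.000683).

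Wnt pathway genes divided evenly, with 10 of 39 higher and 10 lower and a median of -0.04. Wnt11 rose from 1.66 to 3.36 CPM to 15.3 to 18.4 (2.72 ± 0.22, adjusted p = 8.81e-05). Axin2, the common readout of beta-catenin signalling, fell from 74.2, 82.7 and 58.1 CPM to 24.9, 27.5, 33.2 and 45.8 (-1.13 ± 0.21, adjusted p = 0.00525). Lef1 rose as given among the follicle genes, and Dkkl1, a relative of the Dickkopf proteins, fell (-1.48 ± 0.26, adjusted p = 0.00418). Of 14 Notch genes 3 rose (21.4%) and 2 fell (14.3%), near the background of 18.7% and 15.8%. Heyl, a Notch target, had 1.23, 0.124 and 0.178 CPM in PKI_Con and 24.8, 31.9, 27.3 and 22.8 in PKI_BCC (5.58 ± 0.51, adjusted p = 0.000339; 7.40 without PKI_Con 1); the ligand Jag1 rose (0.80 ± 0.11, adjusted p = 0.000861), Jag2 fell (-0.66 ± 0.09, adjusted p = 0.000788), and Notch1 and the target Hes1 were not called (adjusted p = 0.164 and 0.645).

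Of 25 genes of BMP and TGF-beta signalling 8 rose and 4 fell. Inhba, the activin A chain, rose from 0.373 to 1.09 CPM to 3.34 to 5.92 (2.71 ± 0.39, adjusted p = 0.00114; 3.33 without PKI_Con 1), Bmpr1b rose (2.09 ± 0.37, adjusted p = 0.00277). Grem1, a BMP antagonist, fell from 19.3 to 27.0 CPM to 4.32 to 9.15 (-1.88 ± 0.25, adjusted p = 0.00104), as did Bmp2 (-1.14 ± 0.13, adjusted p = 0.000398). Among 19 genes of the EGF receptor family 9 rose and 3 fell. The ligands did not share a direction: Areg rose as given above, Tgfa rose (0.57 ± 0.15, adjusted p = 0.017). Btc, betacellulin, fell from 14.4, 8.27 and 8.26 CPM to 1.58, 1.90, 2.07 and 2.12 (-2.43 ± 0.24, adjusted p = 0.000234). Hbegf had 9.68, 5.22 and 4.75 CPM in PKI_Con and 53.4, 53.1, 17.6 and 17.2 in PKI_BCC (2.42 ± 0.59, adjusted p = 0.0222) and was not called without PKI_Con 2, PKI_Con 3 or PKI_BCC 1 (adjusted p 0.0535 to 0.0739). Egfr was not called (adjusted p = 0.205).

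Of 16 AP-1 and immediate early genes 7 rose and 1 fell, but 2 rose without PKI_Con 2 and 3 without PKI_Con 3. Fosl1, an AP-1 subunit of wounded and malignant epithelium, rose from 0.535 to 1.48 CPM to 3.31 to 12.5 (3.26 ± 0.54, adjusted p = 0.00298; 3.89 without PKI_Con 1). Klf4, a differentiation factor, fell from 1011 to 1213 CPM to 600 to 846 (-0.54 ± 0.12, adjusted p = 0.00861). Of 22 YAP pathway genes and targets 2 rose and 6 fell: the target Ccn2 fell from 83.0 to 142 CPM to 24.0 to 56.6 (-1.57 ± 0.31, adjusted p = 0.0077). F3 fell (-1.22 ± 0.20, adjusted p = 0.00251). Tead2, a partner of YAP, rose (1.68 ± 0.22, adjusted p = 0.000676). Of 21 epidermal transcription factors, a list that also holds Klf4, 3 rose (14.3%) and 4 fell (19%), near the background of 18.7% and 15.8%. Sox4 rose from 31.8 to 51.3 CPM to 124 to 182 (1.99 ± 0.21, adjusted p = 0.000438). Maf, which promotes keratinocyte differentiation, fell from 532, 587 and 607 CPM to 214, 259, 245 and 246 (-1.25 ± 0.09, adjusted p = 5.16e-05).

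Collagen genes changed in both directions, 11 of 32 higher (7 without PKI_Con 3) and 10 lower. The basement membrane chains of type IV split by pair: Col4a1 rose from 11.9 to 30.9 CPM to 83.1 to 141 (2.59 ± 0.36, adjusted p = 0.00227) and Col4a2 from 12.9 to 23.9 CPM to 54.4 to 93.6 (2.12 ± 0.26, adjusted p = 0.000974), whereas Col4a5 fell (-1.20 ± 0.23, adjusted p = 0.00617). Col4a6 fell from 78.7 to 97.9 CPM to 21.8 to 39.3 (-1.49 ± 0.19, adjusted p = 0.000952). Of these 4, Col4a6 is the one the naming rule took; the others were chosen after their values were seen. Col27a1 rose from 1.55 to 2.20 CPM to 31.8 to 54.6 (4.47 ± 0.26, adjusted p = 4.05e-05). Col8a2 fell from 11.2 to 13.2 CPM to 2.39 to 2.99 (-2.19 ± 0.15, adjusted p = 5.85e-05). Fibroblast markers rose in 5 of 8 tested cases (3 without PKI_BCC 1 or PKI_BCC 4), with a summed level of 37.7 to 64.0 CPM in PKI_Con and 132 to 201 in PKI_BCC. Col1a1 and Col1a2 were not called by edgeR over the 7 libraries, but both were called without PKI_Con 1 (adjusted p = 0.0115 and 0.0145), by DESeq2 (0.0259 and 0.0105) and by limma (0.0277 and 0.0468), Col1a2 also with the replicate block and in males only. Of 9 listed endothelial markers 2 were tested and 1, Egfl7, rose. The sum of the 9 was 1.80 to 4.99 CPM in PKI_Con and 5.09 to 6.81 in PKI_BCC. The part of fibroblasts and of endothelial cells in the collagen values was not tested.

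Of 18 tested matrix metalloproteinase and inhibitor genes 7 rose and 3 fell. Mmp12, the macrophage elastase, rose from 0.0494 to 0.186 CPM to 1.41 to 5.13 (4.67 ± 0.65, adjusted p = 0.000946). Mmp9 rose from 0.297 to 2.27 CPM to 6.90 to 26.0 (3.80 ± 0.78, adjusted p = 0.00998; 5.40 without PKI_Con 1), beside the macrophage marker sums given above. Mmp15 and Mmp28, enzymes at higher level in control epidermis, fell (-0.57 ± 0.08 and -0.69 ± 0.14, adjusted p = 0.00111 and 0.00531). Among 19 other matrix genes 8 rose (5 without PKI_Con 2, PKI_Con 3, PKI_BCC 1 or PKI_BCC 3) and 3 fell, with a median of 0.52. Ecm1 and Thbs2 fell (-1.33 ± 0.13 and -1.32 ± 0.15, adjusted p = 0.000198 and 0.000435). Spp1, osteopontin, had no count in PKI_Con and 0.326 to 1.58 CPM in PKI_BCC, at least 14.8-fold higher against the group floor of 3 counts (adjusted p = 0.00709).

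Of 16 desmosome genes, with fitted changes from -0.72 to 2.61, 6 rose and 4 fell, and without PKI_Con 2 or PKI_Con 3 only 2 rose and none fell; without PKI_BCC 1, 3 rose, and 2 fell without PKI_Con 1, PKI_BCC 1 or PKI_BCC 2. Dsc2 rose from 18.7 to 23.6 CPM to 36.6 to 68.8 (1.20 ± 0.21, adjusted p = 0.00355). Dsg3, the basal desmoglein, rose from 354 to 474 CPM to 544 to 627 (0.47 ± 0.11, adjusted p = 0.00914). Of 17 cadherin, tight junction and gap junction genes 5 rose and 3 fell: Cdh3, P-cadherin, rose from 126 to 135 CPM to 174 to 210 (0.60 ± 0.08, adjusted p = 0.000958), Cdh1, E-cadherin, had 651 to 722 and 672 to 691 CPM and was not called (adjusted p = 0.813). Gja1, connexin 43, rose (0.68 ± 0.10, adjusted p = 0.00132).

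Of 26 barrier enzymes 13 fell and 1 rose (none without PKI_Con 1, PKI_Con 3, PKI_BCC 1, PKI_BCC 2 or PKI_BCC 3), with a median of -0.52. Aloxe3, a lipoxygenase of the barrier, had 50.4, 49.0 and 34.0 CPM in PKI_Con and 8.13, 13.0, 12.1 and 14.2 in PKI_BCC (-1.90 ± 0.20, adjusted p = 0.000394), Smpd3 fell (-1.41 ± 0.19, adjusted p = 0.000738). Cers3 was not called (adjusted p = 0.146). Of 22 sterol and fatty acid genes 11 fell and none rose, with a median of -0.50. Lss, lanosterol synthase, had 134, 206 and 215 CPM in PKI_Con and 93.5, 76.9, 91.9 and 92.0 in PKI_BCC (-1.06 ± 0.16, adjusted p = 0.00154). Markers of sebaceous glands, another source of lipid enzymes, had overlapping sums (3733 to 6387 and 2166 to 5740 CPM). Fabp5, which stressed keratinocytes also make, was the 1 of 11 that rose (1.84 ± 0.31, adjusted p = 0.00407). Of that list 2 fell, with a median of -0.87, but 6 fell without PKI_BCC 1 and with the replicate block, 9 with sex as a covariate and in males only, and none with no filter on low counts or without any 1 of the other libraries.

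Of 23 glycolysis and hypoxia genes 15 rose and 1 fell (none in 6 of the 7 fits that leave out 1 library, all but that without PKI_BCC 4), with a median of 0.84. Slc16a3, the lactate exporter Mct4, had 3.55, 4.91 and 4.46 CPM in PKI_Con and 50.3, 31.8, 23.4 and 26.2 in PKI_BCC (2.94 ± 0.30, adjusted p = 0.000438). Egln3, an oxygen sensor that hypoxia induces, rose from 131 to 191 CPM to 291 to 563 (1.38 ± 0.24, adjusted p = 0.00449). Of 61 nuclear genes of oxidative phosphorylation 20 rose and none fell (1 without PKI_BCC 2), with a median of 0.26, but 4 to 26 rose in the fits that leave out 1 library (4 without PKI_Con 2, 6 without PKI_Con 1 or PKI_BCC 2, 7 without PKI_Con 3 and 10 without PKI_BCC 1). Of 86 ribosomal protein genes 1, Rpl27, rose (0.51 ± 0.11, adjusted p = 0.00662); 2 rose without PKI_BCC 3 and 3 without PKI_BCC 4, and 3 fell without PKI_BCC 2.

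Of 18 retinoid and alcohol metabolism genes 9 fell and 3 rose. Aldh1a3, which makes retinoic acid, had 4.05, 0.932 and 0.713 CPM in PKI_Con and 67.8, 31.9, 20.1 and 27.5 in PKI_BCC (4.21 ± 0.75, adjusted p = 0.00736; 5.47 without PKI_Con 1). Adh1, an alcohol dehydrogenase of keratinocytes, fell from 151, 241 and 297 CPM to 36.7, 55.5, 78.4 and 61.1 (-1.98 ± 0.30, adjusted p = 0.0032). Adh6a fell (-2.61 ± 0.55, adjusted p = 0.0135). Of 17 Nrf2 targets 5 rose and 2 fell. Txnrd1 and Slc7a11 rose (0.91 ± 0.13 and 1.19 ± 0.21, adjusted p = 0.00117 and 0.00253), and the glutathione transferases Gsta2 and Gsta3 fell (-2.37 ± 0.24 and -1.84 ± 0.32, adjusted p = 0.000249 and 0.0028). Of 16 genes of the unfolded protein response 8 rose (5 without PKI_Con 2) and 1 fell (none without PKI_Con 2, 2 without PKI_BCC 1). Pdia4 rose (0.64 ± 0.13, adjusted p = 0.00453).

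Of 16 tested kallikreins, proteases of the epidermis, and their inhibitors 5 rose (3 without PKI_Con 2 or PKI_BCC 1, 2 without PKI_Con 3) and 2 fell (3 without PKI_Con 1). Klk6 rose from 8.00, 8.33 and 8.61 CPM to 68.8, 41.2, 19.0 and 28.1 (2.24 ± 0.46, adjusted p = 0.00996). Spink5, the kallikrein inhibitor LEKTI, fell from 299, 512 and 482 CPM to 168, 219, 169 and 231 (-1.13 ± 0.20, adjusted p = 0.00407). Of 20 clade B serpins, mostly protease inhibitors, 5 rose (25%) and 4 fell (20%), near the background of 18.7% and 15.8%. Serpinb7 had 110, 115 and 124 CPM in PKI_Con and 2.90, 7.35, 17.4 and 15.3 in PKI_BCC (-3.43 ± 0.55, adjusted p = 0.00512). Serpinb3c had 1.48, 0.497 and 0 CPM and then 23.0, 39.1, 12.2 and 33.0 (5.25 ± 0.81, adjusted p = 0.00378; 6.74 without PKI_Con 1); the Serpinb3 genes are near-identical and Serpinb3c overlaps Serpinb3b, so this value is uncertain.

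Axon guidance genes, which also act in epithelia, rose in 14 and fell in 14 of 51 cases. Ntn1, netrin 1, had 0.543, 0.186 and 0.297 CPM in PKI_Con and 20.6, 13.5, 15.3 and 16.6 in PKI_BCC (5.52 ± 0.30, adjusted p = 2.6e-05). Sema7a rose from 1.13 to 2.12 CPM to 17.1 to 21.2 (3.55 ± 0.21, adjusted p = 3.31e-05). Nrp1, a semaphorin and VEGF receptor, fell from 7.31 to 11.4 CPM to 0.868 to 2.39 (-2.53 ± 0.32, adjusted p = 0.000627). Of 28 genes of the primary cilium, the organelle in which Smo acts, 4 rose and 2 fell, with a median of -0.03 (2 rose in 6 of the 7 fits that leave out 1 library, all but that without PKI_BCC 3, and 1 fell without PKI_Con 2 or PKI_Con 3). These shares, 14.3% and 7.14%, were not above the background of 18.7% and 15.8%. Tulp3, which carries receptors into the cilium, rose from 19.4 to 26.9 CPM to 42.5 to 45.6 (0.93 ± 0.11, adjusted p = 0.000482). Evc, a ciliary partner of Smo, rose from 8.45 to 10.7 CPM to 13.2 to 18.6 (0.70 ± 0.15, adjusted p = 0.00748).

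**Figure D5:**
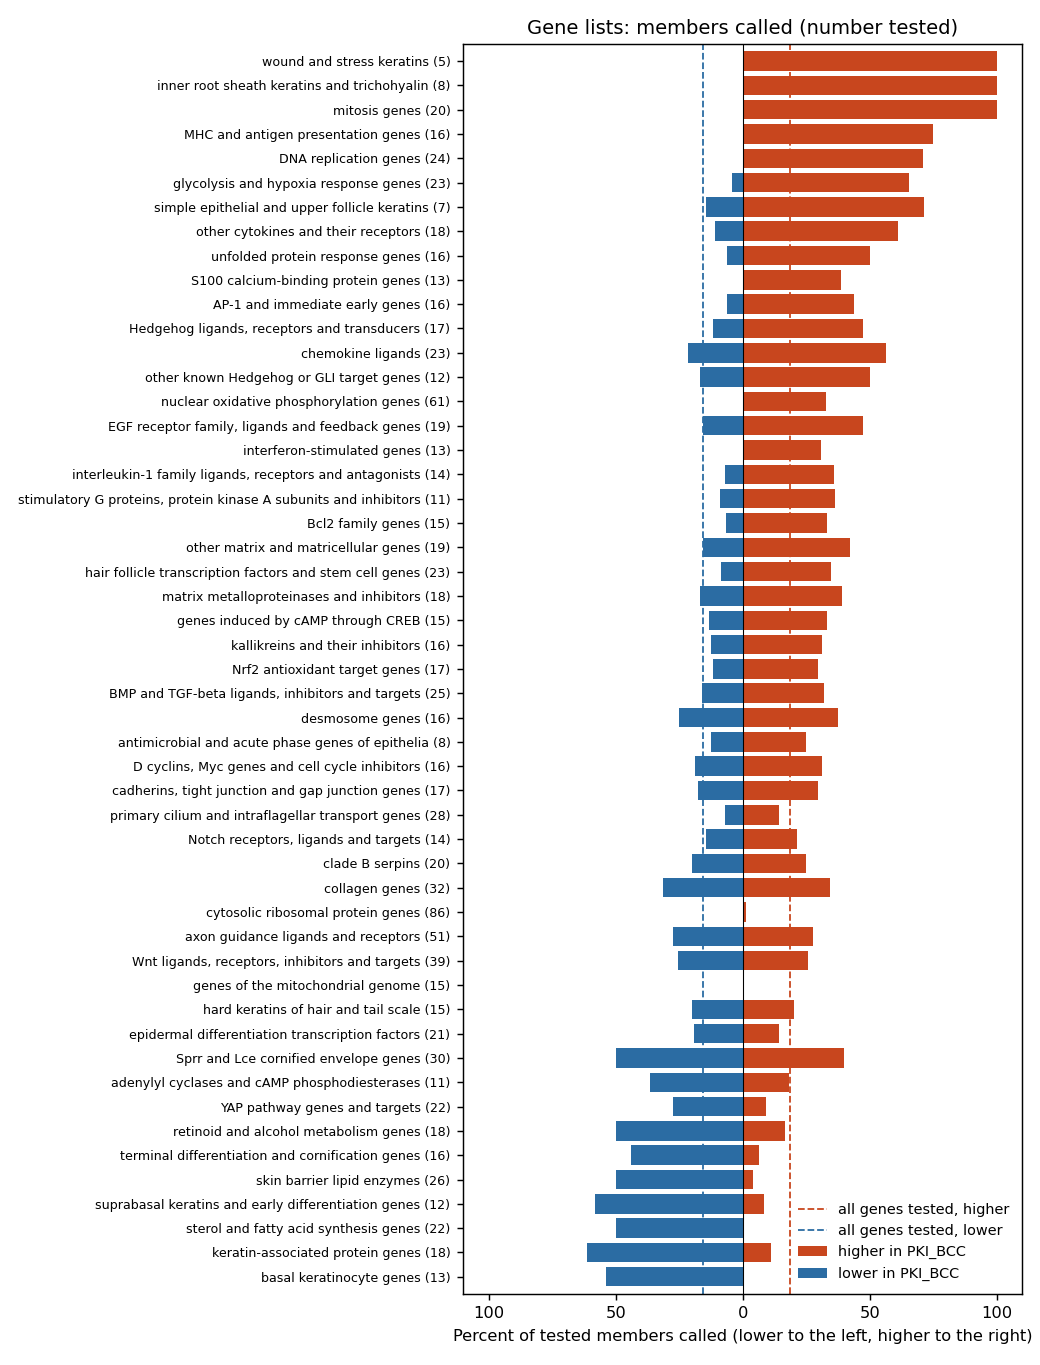
Percent of tested members of each gene list called higher (red, to the right) and lower (blue, to the left) in PKI_BCC, with the number tested in parentheses and dashed lines at the background of 18.7% and 15.8%. Wound keratins, inner root sheath genes and mitosis genes reach 100% higher, and the lists of basal keratinocyte and sterol genes have no member called higher.

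Melanocyte markers fell in 6 of 11 cases and none rose (4 to 8 fell in the fits that leave out 1 library). Their sum was 328, 382 and 515 CPM in PKI_Con and 171, 133, 220 and 153 in PKI_BCC. Gpnmb, a melanosome protein, fell from 141, 205 and 285 CPM to 43.5, 43.0, 77.1 and 44.0 (-2.02 ± 0.30, adjusted p = 0.00305). Tyr, tyrosinase, fell from 11.7 to 13.8 CPM to 3.34 to 7.61 (-1.14 ± 0.26, adjusted p = 0.0101). Muscle, fat and red blood cell markers stayed under 24 CPM in sum in all 7 libraries (3.75 to 8.02 and 4.16 to 23.7).

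The smallest p-value of all genes belonged to Cwc22 (chr2:77881159-77946375, minus strand), a splicing factor. It had 278, 282 and 303 CPM in PKI_Con and 37.0, 38.2, 42.6 and 41.0 in PKI_BCC (-2.86 ± 0.08, adjusted p = 3.12e-07), with a narrow spread in both groups. Cwc22 lies in a segment of chromosome 2 that is known to vary in copy number among mouse strains; whether the groups differ there was not tested. The next were Adamts1, a matrix protease with 10.9 to 12.2 and 80.5 to 119 CPM (3.03 ± 0.15), Pi15, a protease inhibitor with 3.60 to 4.63 and 53.5 to 82.6 CPM (4.03 ± 0.20), Stfa3, a stefin with 75.6 to 113 and 589 to 720 CPM (2.76 ± 0.14). Tgm5, a transglutaminase with 13.0 to 15.3 and 59.0 to 80.0 CPM (2.38 ± 0.13), all 4 with an adjusted p of 2.6e-05. Other genes of the naming rule were 2610528A11Rik (6.68 ± 0.65, adjusted p = 0.000803), which rose, and Selenbp1, a selenium-binding protein, and Slc43a1, an amino acid transporter, which fell (-3.35 ± 0.52 and -3.31 ± 0.37, adjusted p = 0.00476 and 0.000493).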

How the data were processed

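PolyA RNA of 7 tail keratinocyte libraries, 3 PKI_Con and 4 PKI_BCC, was analysed. Per the submitters' processing notes the tools were bcl2fastq 2.20, cutadapt 1.18, STAR 2.7.0f and Partek, with mm10; the counting tool and its strand setting are not given in the sources used here. The authors deposited estimated counts per gene (23713 genes; 32.8% of the values of the 7 libraries are not whole), which were rounded. A second table the authors deposited holds normalized signal, each count times a factor per library plus 0.001; it served as an alternative only. No column of sample values was left unmapped (0). Counts were filtered with filterByExpr, scaled by the trimmed mean (TMM) and tested with edgeR 4.0.16 (robust quasi-likelihood, R 4.3.3) with Benjamini-Hochberg adjustment over 16397 genes, after a test on simulated data. A gene is called at an adjusted p under 0.05. A gene near 0 in 1 group could pass the filter through the other group alone and could then hardly be called in the opposite direction. This bears on every list count. Alternatives used DESeq2 1.42.0 and limma 3.58.1 (pseudocount 1). Gene positions are GRCm38.

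The gene lists (62) and the comparison were chosen with earlier results of these data known. Named genes came from 5 rules: key genes of each list; the 12 top and 12 bottom fold changes where the mean log2 level was 2 or more and the groups were apart; the 6 greatest gains and losses of CPM; the 6 smallest p-values; and, per list, the called members ranked first and last by change, up to 2 at each end. Not all are printed, and some results are not reported here. The promoter genes Sprr1a, Sprr1b, Dusp1 and Errfi1, and Shh, Col1a1 and Col1a2, were chosen after their values were seen.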

Additional observations from a re-analysis of the deposited data

Results flagged for a closer look

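In 14 of the 208 named genes that were looked at, 1 of the 4 PKI_BCC libraries stood apart from the other 3 by Dixon's criterion; chance does this in about 1 of 20 groups. PKI_BCC 1 was high for Pkib (2.34 against 1.36 to 1.45 CPM) and Ctla4 (7.47 against 2.23 to 2.72) and low for Notch1 (350.5 against 388 to 392). PKI_BCC 2 was high for Krtap24-1 (1.34 against 0.508 to 0.616 CPM) and low for Lss (76.9 against 91.9 to 93.5) and Trp63 (600.3 against 683 to 689). PKI_BCC 3 was high for Gpnmb (77.1 against 43.0 to 44.0 CPM) and low for Cdkn2a (1.58 against 3.60 to 3.96), Gas1 (271.5 against 308 to 315), Cers3 (55.8 against 66.9 to 68.3) and Smpd3 (6.29 against 9.10 to 9.39). PKI_BCC 4 was high for Crnn (41.2 against 28.3 to 29.6 CPM) and Col1a2 (12.7 against 4.44 to 5.64) and low for Krt8 (0.977 against 2.02 to 2.16).

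For 3 inner root sheath keratins an interaction term of sex and group passed the threshold in edgeR's quasi-likelihood test over all genes. On the log2 scale the change in males exceeded that in females by 3.89 for Krt25 (6.39 against 2.51, adjusted p = 0.0161), by 3.47 for Krt27 (7.02 against 3.55, adjusted p = 0.0184) and by 3.54 for Krt71 (6.70 against 3.17, adjusted p = 0.023). The female controls are 1 library, PKI_Con 1, which is assumed to vary like the others and held the highest control level of all 3 genes, so its sex and any other feature of it cannot be told apart and no difference between the sexes is read from these values. In all, 24 of 16397 genes passed this test.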

How the results depend on the processing

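With other scalings, no filter, DESeq2, limma, the block or sex as a covariate, 3025 to 3306 genes were called higher and 2480 to 3025 lower, against 3063 and 2590, and no called gene was called in the opposite direction (0). Only 1 of these counts moved by over 1.5 times: 489 genes were at least 2-fold lower with limma on the authors' normalized values, against 740; that fit differs in test, scaling and pseudocount, and the cause was not tested. Leaving out each library gave 2221 to 2982 higher and 1836 to 2484 lower, and 1026 to 1304 and 632 to 787 at least 2-fold. The check of pairing was mixed (deviations of same-numbered libraries correlated at r = 0.283, -0.0657 and 0.191, and not every library correlated best with its own number), so the numbers were not taken as pairs; with the replicate number as a block 3122 rose and 2866 fell, and 1268 and 830 were at least 2-fold higher and lower. Males only (2366 and 2095) and females only (2046 and 1794) were chosen after seeing the data; the latter has 1 control. Of the genes named, 14 were no longer called with the block (Krt2, Krt5, Krt25, Krt27, Krt28, Krt35, Krt36, Krt71, Krt84, Krtap3-1, Ccn2, Selenbp1, Sprr1b and Tgfa, adjusted p 0.0565 to 0.121), 4 with no filter (Krt1, Krt25, Tnc and Hbegf, adjusted p 0.0505 to 0.0869), 3 with sex as a covariate (Krt5, Sprr1b and Tnc), 16 in males only and 41 in females only. Newly called were 6 with the block (Krt10 and Ivl besides those in the text), 4 with DESeq2, 3 with limma, 2 with sex as a covariate (Flg2 and Nr4a1), 4 in males only and 7 in females only, Hhip, Fos and Cers3 among the latter. Of 176 called genes named, 33 had a fitted change that moved by over 1.5 times with 1 library left out. Of these, 30 moved without PKI_Con 1. The values stand beside the genes, except those of Cd4, Ctla4, Il24 and Krt26. These genes have no control count left in that fit, so their values there are no bound. Genes not called whose fitted change turned sign were Bcl2 (0.16, males only), Ccnd1 (0.03, males only; -0.18 to 0.01 with a library left out), Cdh1 (-0.07 to 0.01 with a library left out), Hes1 (-0.20 to 0.10 with a library left out), Dusp1 (-0.19 with sex as a covariate, -0.38 males only, -0.17 to 0.76 with a library left out), Errfi1 (0.01 with upper-quartile factors and with the block, -0.10 to 0.13 with a library left out), Fos (-0.45, males only), Gas1 (0.10 males only, -0.17 to 0.14 with a library left out), Gli3 (0.10, males only), Hhip (0.38 males only, -2.82 to 0.37 with a library left out), Trdc (0.28 males only, -0.54 to 0.05 with a library left out) and Krt14 (0.01 with upper-quartile factors, 0.04 with the block, 0.25 females only, -0.06 to 0.07 with a library left out); the cause was not tested. Depth limits statements on genes near 3 counts a library.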

Other observations

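The genes described here were chosen after their values were seen. Among T cell genes, Foxp3, the defining factor of regulatory T cells, had 3 counts in PKI_Con, none of them in PKI_Con 3, and 356 in PKI_BCC, a ratio of 78.6 (95% counting interval 26.7 to 383). Its fitted change was 6.14, and 6.89 without PKI_Con 1. Ctla4, an inhibitory receptor, had 1 count in PKI_Con and 302 in PKI_BCC (95% counting interval of the ratio 35.6 to 7.93e+03). Icos, a costimulatory receptor, had 0.395, 0.435 and 0 CPM in PKI_Con and 15.0, 12.6, 11.3 and 5.54 in PKI_BCC (5.28 ± 0.63, adjusted p = 0.000779, edgeR). In all 3 genes every tumour library lay above every control, as in 23.1% of all genes tested.

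Nr3c1, the glucocorticoid receptor, had 268, 234 and 229 CPM in PKI_Con and 103, 113, 111 and 116 in PKI_BCC (-1.14 ± 0.08, adjusted p = 5.77e-05). Tsc22d3, Zbtb16 and Dusp1 are genes that this receptor can induce; no list of its targets was counted. Tsc22d3, with 117, 139 and 203 CPM and then 23.4, 25.3, 34.9 and 28.4 (-2.45 ± 0.21, adjusted p = 0.000216), and Zbtb16 (-2.38 ± 0.47, adjusted p = 0.00952) fell, and Dusp1 was not called (adjusted p = 0.849). Fgf5, a growth factor that ends the hair growth phase, had no count in PKI_Con and 966 in PKI_BCC, at least 213-fold higher against a floor of 3 counts over the control group. Hoxd13 rose from 0.0594 to 0.444 CPM to 6.51 to 14.6 (5.56 ± 0.51, adjusted p = 0.0002; 6.79 without PKI_Con 1).

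Within PKI_BCC the 2 female libraries (1 and 2) and the 2 male libraries (3 and 4) differed in 529 of 16397 genes by edgeR's quasi-likelihood test, 348 higher in males and 181 higher in females. S100a8 was lower in the male libraries by -1.63 (adjusted p = 0.014), S100a9 by -1.78 (adjusted p = 0.0286), Krt6a by -0.80 (adjusted p = 0.0289) and Krt16 by -0.93 (adjusted p = 0.0112) on the log2 scale. Hbegf was lower by -1.61 (adjusted p = 0.000944), Cxcl1, a neutrophil attractant, by -2.46 (adjusted p = 0.00689), and the immediate early gene Fos by -2.29 (adjusted p = 0.00569). Gli2 was higher in the male libraries by 0.71 (adjusted p = 0.036), and Ptch1 and Gli1 were not called (adjusted p = 0.11 and 0.061). Sex and any other difference between these pairs of libraries cannot be told apart.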
